A study of Mus musculus with 10 samples.

Results

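Adrenergic receptors are the cell-surface receptors for noradrenaline and adrenaline, and their genes form the family described here in the shell of the mouse nucleus accumbens. The members were taken by symbol from a list of 7 receptor genes. A row in the expression table was found for 5 of them, Adra1a, Adra2a, Adra2b, Adra2c and Adrb1, out of 20483 genes, and Adra1b and Adra1d were not analysed here. The title of the series concerns reward and the subregions of the nucleus accumbens. The design compares tissue from the lateral shell (n = 5 libraries) with tissue from the medial shell (n = 5 libraries) of mice labelled wild type, with no treatment named and no age, sex or strain given. All 10 libraries were made from RNA of small captured tissue pieces (Geo-seq, a laser-capture method with amplification from a low input). The labels call the samples of a region biological replicates without saying whether each came from its own animal, so the error behind each p-value is the spread among libraries, part of which could be technical. The cell type is labelled only as neural.

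The family is divided by the G protein that each receptor engages. Alpha-1 receptors such as the product of Adra1a couple to Gq, which activates phospholipase C and releases calcium from internal stores. Alpha-2 receptors, encoded by Adra2a, Adra2b and Adra2c, couple to Gi and Go, lower cyclic AMP and often act as brakes on transmitter release. Beta receptors such as the product of Adrb1 couple to Gs and raise cyclic AMP. The striatum has sparse noradrenergic innervation, and the accumbens shell is the striatal territory known to receive most of it. Alpha-2C is known as the alpha-2 subtype most characteristic of striatal spiny projection neurons, while alpha-2A predominates in the locus coeruleus and the cortex.

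The alpha-2 genes are paralogs, so the sequence that separates them bears on whether their values can be told apart. The stretch of 90 coding bases in which the 3 genes are most alike is shown from GENCODE M21 transcripts on GRCm38, plus strand, 5′ to 3′, with capitals at the 19 positions where the 3 genes do not all carry the same base. It lies in Adra2a at chr19:54046454-54046543, in Adra2b at chr2:127363711-127363800 and in Adra2c at chr5:35280134-35280223, in each case inside a single coding exon.
Adra2a: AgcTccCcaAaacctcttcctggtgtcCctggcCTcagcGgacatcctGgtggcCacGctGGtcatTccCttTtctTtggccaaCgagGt
Adra2b: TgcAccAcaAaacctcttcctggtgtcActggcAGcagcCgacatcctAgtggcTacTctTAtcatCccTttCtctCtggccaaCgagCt
Adra2c: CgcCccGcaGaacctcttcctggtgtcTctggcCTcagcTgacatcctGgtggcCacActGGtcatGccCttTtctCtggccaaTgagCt
Even here Adra2a and Adra2c differed at 11 of 90 bases, and Adra2b differed from each of them at 17. Over the whole coding sequences the alpha-2 genes were 62.0% to 64.5% identical in pairs, with no common run longer than 26 bases. Adra1a and Adrb1 shared 45.3% to 49.9% of aligned bases with the alpha-2 genes and with each other. No stretch of 50 bases in the transcripts of Adra2a, Adra2b or Adra2c occurred in a transcript of any other gene on either strand, against 0.386% of such stretches for Adra1a and 0.39% for Adrb1. None of the 5 genes overlapped another annotated gene.

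In this annotation the longest coding transcript of each alpha-2 gene and of Adrb1 has 1 exon. Adra2c spans chr5:35278319-35281763, Adra2b chr2:127363208-127367221 and Adra2a chr19:54044151-54048982. Adrb1 (chr19:56722199-56733113) has its coding sequence in 1 exon, and Adra1a (chr14:66635251-66771168) has 6 annotated transcripts and a coding sequence split over 2 exons. All 5 genes are on the plus strand. The values are per gene and do not separate the Adra1a transcripts.

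Levels are in TPM (an abundance divided by gene length and scaled to the same total in every library, so that genes can be compared within a library). The table keeps no sequencing depth, so no counting interval can be given. Between 15402 and 17003 genes were above 0 in a library, and the share of TPM in mitochondrial transcripts was 23.5% to 35.3%. Some well-expressed genes carry zeros (20 of the 4272 whose mean reached 20 TPM), so a gene with such a value is said only to be listed at 0. The labelled tissue was checked against its markers. Genes of spiny projection neurons summed to 3974 to 6250 TPM in lateral and 3992 to 6412 TPM in medial libraries, and the glutamatergic markers with a row, Slc17a6 and Neurod6, did not exceed 3.31 TPM together in any library. In the fit over all genes (limma on log2(TPM + 1), Benjamini-Hochberg adjusted p under 0.05), 60 genes passed as higher in lateral and 171 as higher in medial tissue. The median difference of all genes tested was -0.21 (log2, lateral minus medial), so most genes sat slightly lower in lateral libraries. Calls higher in lateral made up 26.0% of all calls. They made up 51.8% (88 against 82 genes) under median-ratio scaling and 46.2% (86 against 100) under quantile normalization.

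None of the 4 receptor genes tested in that fit passed in either direction. The background is small, since 0.385% of all genes tested passed as higher in lateral and 1.1% as higher in medial tissue. Adra2c had an estimate of 2.81-fold more TPM in the lateral shell with no overlap between the regions, and Adrb1 one of 2.00-fold more with overlap. Adra1a and Adra2a had lower means in the lateral shell, and Adra2b did not separate the regions. At least 1 TPM in 5 of 10 libraries was required for the fit, and Adra2a, at 1 TPM or more in 3 libraries, fell below it.

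**Figure D1:**
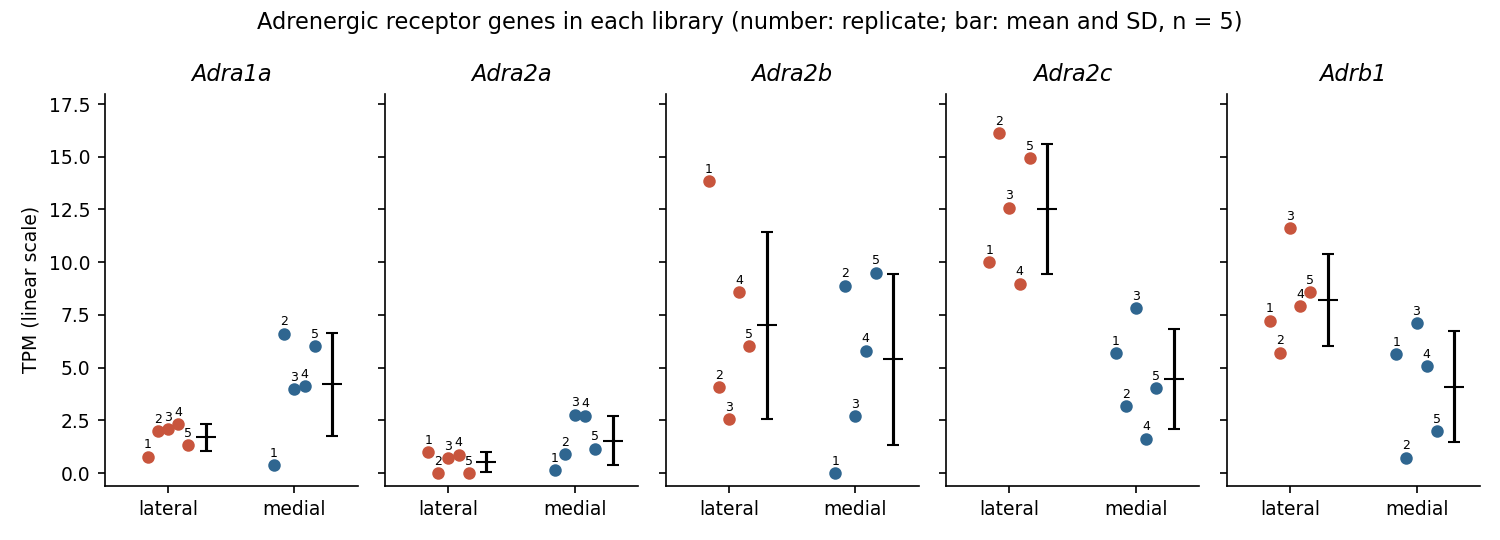
Level of each receptor gene in TPM on a linear axis, with 1 point per library, the replicate number above it, and the mean with its SD (n = 5) beside each region. The lateral Adra2c points lie at 8.98 TPM or above and the medial ones at 7.81 TPM or below, while every other gene has points that overlap between the regions.

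Adra2c, encoding the alpha-2C receptor, was at 10.01, 16.1, 12.6, 8.98 and 14.9 TPM in lateral replicates 1 to 5. In medial replicates 1 to 5 it was at 5.67, 3.18, 7.81, 1.63 and 4.02 TPM. Every lateral library was above every medial one, and the closest were lateral replicate 4 and medial replicate 3. Among all genes tested 4.25% had no overlap between the regions in either direction. The means were 12.5 ± 3.07 TPM (SD, n = 5) in lateral and 4.47 ± 2.37 TPM (SD, n = 5) in medial tissue. The log2 difference was 1.39 with a standard error of 0.34 and a 95% interval of 0.65 to 2.13 (limma adjusted p = 0.068 over 15596 genes). It lay 1.6 above the median of all genes tested. The exact two-sided permutation p was 0.00794, the smallest that 252 divisions of 10 libraries can give. It is 1 of 5 such tests on the receptor genes, and is not adjusted.

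The Adra2c limma adjusted p crossed the threshold under some scalings between libraries. It was 0.0476 under median-ratio scaling (log2 difference 1.57) and 0.0476 under quantile normalization (1.65). Rescaling without mitochondrial and haemoglobin genes did not bring it under the threshold (1.52, limma adjusted p = 0.0624). Over 22 alternatives the difference kept its sign, at 0.91 to 1.65, with limma adjusted p from 0.0476 to 0.263. The highest of these came without both lateral replicate 5 and medial replicate 2. Less RNA per cell and fewer cells carrying the transcript cannot be told apart in tissue of this kind.

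**Figure D2:**
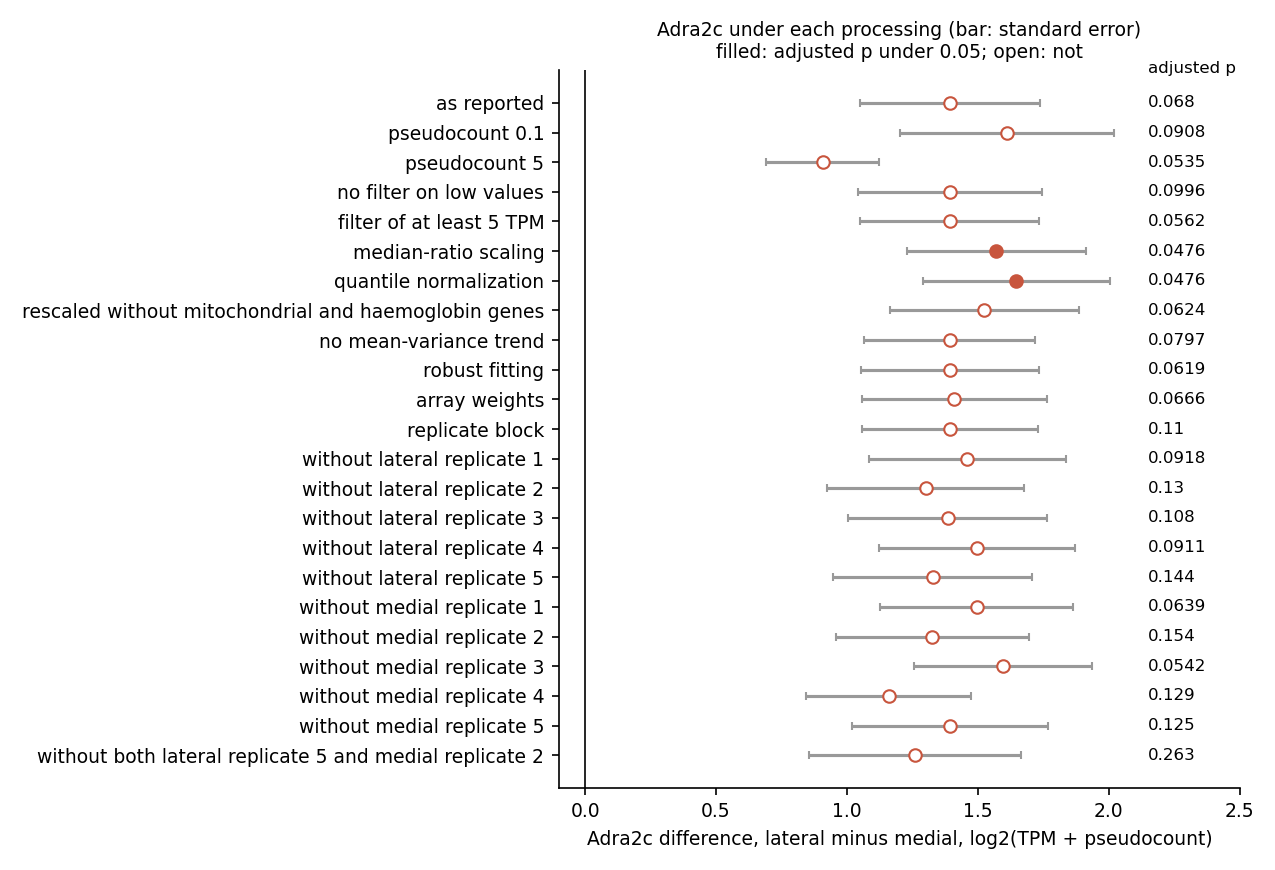
The Adra2c difference (lateral minus medial, log2 scale) under the reported processing and each of 22 alternatives, with bars for the standard error and the limma adjusted p printed at the right. All estimates lie between 0.91 and 1.65, and the 2 filled points, median-ratio scaling and quantile normalization, are those with an adjusted p under 0.05.

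The other 2 alpha-2 genes had overlapping values in the 2 regions. Adra2b, encoding the alpha-2B receptor, which in brain is best known from the thalamus, was at 13.8, 4.06, 2.56, 8.58 and 6.03 TPM in lateral replicates 1 to 5. In medial replicates 1 to 5 it was listed at 0 and at 8.89, 2.71, 5.81 and 9.51 TPM. The values spread widely within both regions and overlapped over most of their range. The log2 difference was 0.56 with a 95% interval of -0.77 to 1.88 (limma adjusted p = 0.709, exact two-sided permutation p = 0.524). Without medial replicate 1, the library listed at 0, the difference was -0.012. An interval this wide does not show that the regions are alike.

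Adra2a, encoding the alpha-2A receptor, was the lowest of the family. Lateral replicates 1 to 5 were at 0.989 TPM, listed at 0, at 0.698 and 0.864 TPM and listed at 0. Medial replicates 1 to 5 were at 0.134, 0.898, 2.76, 2.72 and 1.15 TPM. The 3 highest libraries were medial and the 2 listed at 0 were lateral, with overlap between them. The difference of mean log2(TPM + 1) was -0.67 (exact two-sided permutation p = 0.0952). In a fit with no filter on low values the limma adjusted p was 0.532 with a 95% interval of -1.58 to 0.23. Without medial replicate 1 the difference was -0.93 (exact permutation p = 0.0317). Without any other single library the exact permutation p was 0.0873 to 0.214.

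Summed over the 3 genes, alpha-2 transcripts came to 15.8, 20.2 and 24.9 TPM as the lowest, median and highest lateral library. The medial values were 5.81, 13.0 and 14.7 TPM. Adra2c made up 40.3% to 79.9% of that sum in lateral libraries and 16.1% to 97.7% in medial ones. Its highest share was in medial replicate 1, where Adra2b was listed at 0, and the other 4 medial libraries ranged up to 58.8%. These sums and shares are given as a description without a test.

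Adrb1, encoding the beta-1 receptor, was at 7.22, 5.71, 11.6, 7.93 and 8.59 TPM in lateral replicates 1 to 5. In medial replicates 1 to 5 it was at 5.63, 0.732, 7.09, 5.07 and 1.97 TPM. Of the lateral libraries 4 were above every medial one, and lateral replicate 2 lay among the medial values. Medial replicates 2 and 5 were the lowest. The means were 8.21 ± 2.18 TPM (SD, n = 5) and 4.10 ± 2.65 TPM (SD, n = 5). The log2 difference was 1.03 with a standard error of 0.42 and a 95% interval of 0.12 to 1.94 (limma adjusted p = 0.266). Over all genes tested 3.03% had an unadjusted limma p under 0.05 with the higher values in lateral tissue, and both Adrb1 and Adra2c were among them. The share with the higher values in medial tissue was 12.3%. The exact two-sided permutation p for Adrb1 was 0.0159, and it was above 0.05 without lateral replicate 3 (exact p = 0.0952), 4 (0.0635) or 5 (0.0635).

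Adra1a, encoding the alpha-1A receptor, had its higher mean in medial tissue. It was at 0.772, 2.00, 2.07, 2.32 and 1.33 TPM in lateral replicates 1 to 5 and at 0.367, 6.61, 3.97, 4.12 and 6.003 TPM in medial replicates 1 to 5. Of the medial libraries 4 were above all lateral ones, and medial replicate 1 was the lowest of all 10. The means were 1.70 ± 0.634 TPM (SD, n = 5) and 4.21 ± 2.44 TPM (SD, n = 5). The log2 difference was -0.78 with a 95% interval of -1.81 to 0.26 (limma adjusted p = 0.47, exact two-sided permutation p = 0.151). Without medial replicate 1 it was -1.21, with a limma adjusted p of 0.134 and an exact permutation p of 0.00794. That library was the only medial one not above all lateral ones. Without it the regions do not overlap and the exact p is the smallest possible, so that p is no separate support. Without any other single library the exact permutation p was 0.159 to 0.286. Medial replicate 1 also had the lowest medial level of Adra2a and the only 0 of Adra2b.

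The order of the levels was not the same in the 2 regions. In lateral tissue Adra2c (12.5 TPM) was followed by Adrb1 (8.21 TPM), Adra2b (7.02 TPM), Adra1a (1.70 TPM) and Adra2a (0.51 TPM). Adra2c was above Adrb1 in 5 of 5 lateral libraries, although their ranges of mean and SD overlapped. Adrb1 and Adra2b did not differ beyond their spread, and Adra2b was above Adra1a in 5 of 5. In medial tissue Adra2b (5.38 TPM), Adra2c (4.47 TPM), Adra1a (4.21 TPM) and Adrb1 (4.10 TPM) did not differ beyond their spread, and Adra2a was the lowest at 1.53 TPM, its range of mean and SD overlapping that of Adrb1. Across all 10 libraries the mean level of Adra2c stood above 60.1% of the genes in the table, that of Adrb1 above 52.2%, Adra1a above 34.6% and Adra2a above 16.8%.

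**Figure D3:**
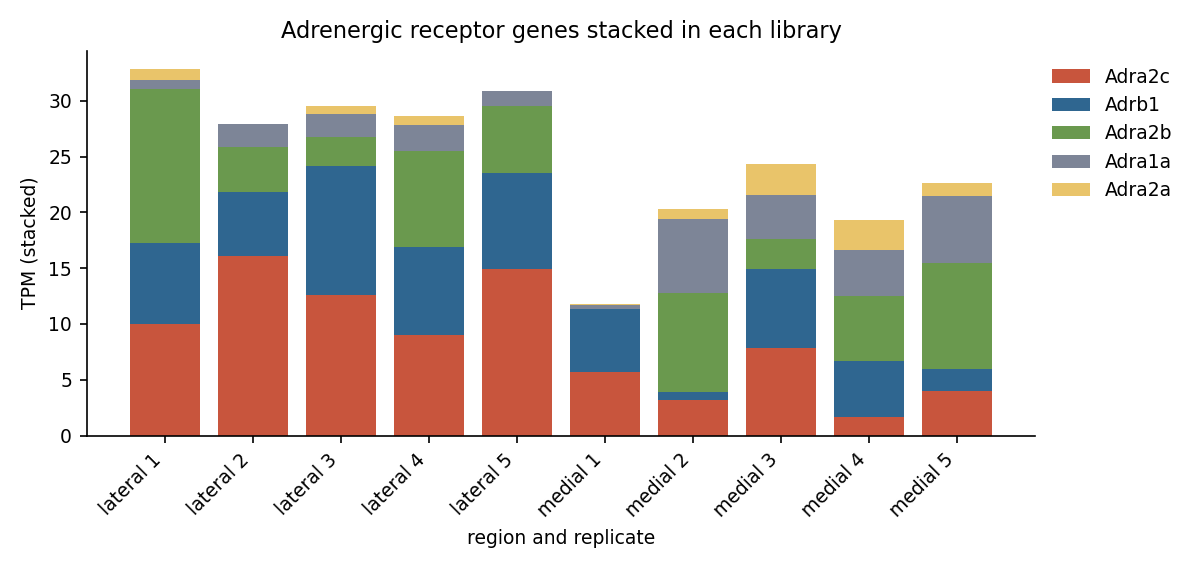
TPM of the 5 receptor genes stacked within each library, with the 5 lateral libraries on the left and the 5 medial ones on the right. The stacks run from 27.9 to 32.8 TPM in lateral and from 11.8 to 24.3 TPM in medial libraries, and the Adra1a block takes 2.35% to 8.10% of the lateral and 3.11% to 32.6% of the medial stacks.

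Downstream of the alpha-1 receptors, 10 genes of the Gq pathway were tested and 1 passed as higher in lateral tissue, as did 0.385% of all genes tested. Itpr1, the inositol trisphosphate receptor of the endoplasmic reticulum, measured 75.8 ± 15.0 TPM (SD, n = 5) laterally and 39.8 ± 9.03 TPM (SD, n = 5) medially (log2 difference 0.92, limma adjusted p = 0.0425). Prkcb, a protein kinase C, was at 128 against 77.6 TPM (adjusted p = 0.0734 by limma), and Plcb4, a phospholipase C, at 8.06 against 2.80 TPM (0.115). The median difference of the list was 0.36, and 8 of 10 members had positive estimates, where 4884 of 15596 genes did over the whole table. The list median was 0.58 under quantile normalization, which also moved the median of all genes from -0.21 to -0.001. It was 0.27 without medial replicate 2. The Itpr1 call was lost in 13 of 22 alternatives. These included the fits without any one of lateral replicates 1, 2, 4 and 5 or medial replicates 2 to 5, and its limma adjusted p reached 0.179. The estimate for Adra1a itself, the alpha-1 member measured, was negative.

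Of the genes linked to alpha-2 signalling 7 were tested and none passed in limma, with 1 at an unadjusted p under 0.05, higher in medial tissue as were 12.3% of all genes tested at that limit. That gene was Gnai1, a Gi alpha subunit, at 50.5 TPM laterally and 84.4 TPM medially (adjusted p = 0.304). Kcnj3, a subunit of G-protein-gated potassium channels, was at 4.09 against 7.73 TPM (0.42), and Gnai3 at 9.41 against 14.1 TPM (0.569). The list median was -0.15, near that of all genes tested. Without medial replicate 1, 1 gene of this list passed as higher in medial tissue, as did 187 of all genes tested.

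Of the genes linked to beta signalling 14 were tested, with a median of -0.10 and 4 positive and 10 negative estimates. Of these 1 passed as higher in lateral tissue, as did 0.385% of all genes tested. Adcy1, a calcium-stimulated adenylyl cyclase, measured 15.7 ± 4.11 TPM (SD, n = 5) laterally and 5.51 ± 1.85 TPM (SD, n = 5) medially (log2 difference 1.37, limma adjusted p = 0.0344). Adcy5, the main adenylyl cyclase of the striatum, was at 184 against 131 TPM (0.203), and Adcy9 at 14.7 against 8.52 TPM (0.22). Prkar2a, a regulatory subunit of protein kinase A named after its value was seen, lay the other way at 8.98 against 14.9 TPM (limma adjusted p = 0.23). These 4 were the members at an unadjusted p under 0.05, 3 higher in lateral and 1 in medial tissue, against 3.03% and 12.3% of all genes tested. The Adcy1 call was lost in 11 of 22 alternatives, with an adjusted p of up to 0.146. Those included the fits without any one of lateral replicates 1, 2, 3 and 5 or medial replicates 2 to 5. With no filter on low values it was lost too.

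Among 10 genes for receptor desensitization and scaffolding, none passed in limma and 2 had an unadjusted p under 0.05, 1 in each direction, against 3.03% (higher in lateral) and 12.3% (higher in medial) of all genes tested. Arrb1, encoding beta-arrestin 1, measured 13.0 ± 14.7 TPM laterally and 35.0 ± 9.76 TPM medially (SD, n = 5 each) (log2 difference -2.20, adjusted p = 0.148). Ppp1r9b, encoding spinophilin, a scaffold that binds alpha-2 receptors, was at 134 against 83.5 TPM (0.65, adjusted p = 0.0958). The receptor kinase gene Grk3 was at 4.35 against 7.53 TPM (adjusted p = 0.38). The list median was 0.06.

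For noradrenaline itself, 6 of 10 listed genes of its synthesis, uptake and breakdown were tested, with a list median of 0.15. Of them 1 passed, as higher in medial tissue, and it was the only one at an unadjusted limma p under 0.05. Over all genes tested 1.1% passed as higher in medial tissue, and 12.3% had such an unadjusted p in that direction. Ddc, the decarboxylase that makes dopamine upstream of noradrenaline, measured 22.4 ± 8.21 TPM (SD, n = 5) medially and 4.09 ± 2.14 TPM (SD, n = 5) laterally (log2 difference -2.24, limma adjusted p = 0.013). Its call was lost only without both lateral replicate 5 and medial replicate 2 (0.1). Th, which catalyses the preceding step, was at 32.0 ± 31.8 against 7.53 ± 7.74 TPM and listed at 0 in 3 libraries (adjusted p = 0.621). Maoa, a monoamine oxidase, was at 13.5 against 11.0 TPM (0.69). Of the markers fixed for noradrenergic neurons Th alone was analysed, and it is also expressed by dopaminergic neurons, so the values say nothing particular about noradrenergic fibres. The cell bodies of those neurons lie in the brainstem.

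Receptor transcripts in such tissue can come from several cell types, so the summed levels of marker genes are given beside them. Their counts at an unadjusted limma p under 0.05 stand against 3.03% of all genes tested for higher lateral and 12.3% for higher medial values. In the fit on all 10 libraries, counts of passing genes stand against 0.385% and 1.1%. All 10 microglia genes tested had higher lateral values (median 0.91), and 3 passed, C1qa, Tmem119 and Ctss (limma adjusted p = 0.035 to 0.0388). Each of the 3 lost its call in at least 11 of 22 alternatives. The microglia sum was 426 to 666 TPM in lateral and 202 to 432 TPM in medial libraries. None of the 10 oligodendrocyte genes passed in limma (4 at an unadjusted p under 0.05, all higher in lateral), with a median of 0.99 and sums of 307 to 949 against 105 to 467 TPM. Among them the myelin gene Mobp had an adjusted p of 0.0691 in limma. The oligodendrocyte median was 0.465 without medial replicate 2. Without lateral replicate 3, 1 member passed as higher in lateral, as did 48 of all genes tested. Of 8 GABAergic interneuron genes none passed, with 5 at an unadjusted p under 0.05, all higher in lateral (median 1.72, sums of 489 to 5645 against 28.2 to 1707 TPM). The peptide genes Sst and Npy were at 1146 ± 921 and 1258 TPM laterally and at 191 ± 357 and 199.5 TPM medially (limma adjusted p = 0.089 and 0.0834). Without medial replicate 5, 3 interneuron genes passed as higher in lateral, as did 39 of all genes tested. Without medial replicate 1 the counts were 1 and 68. Astrocyte genes, 12 tested, had a median of -0.23 and sums of 973 to 1313 against 1085 to 1461 TPM, and none passed, with 5 at an unadjusted p under 0.05, 3 higher in medial and 2 in lateral tissue. Gja1, a connexin gene of astrocytes, measured 48.9 TPM laterally and 93.3 TPM medially (limma adjusted p = 0.128). Gfap, at 14.1 against 3.42 TPM (0.239 by limma), and S100b, at 103 against 68.9 TPM (0.23), lay the other way and were named after their values were seen. The 9 endothelial and mural genes (median 0.21), 12 spiny projection neuron genes (0.02) and 5 cholinergic interneuron genes (-0.13) had no passing member, and 0, 4 and 1 of them had an unadjusted p under 0.05. The 4 spiny projection neuron genes were split, with Ppp1r1b and Bcl11b higher in lateral and Tac1 and Pdyn in medial tissue. Without lateral replicate 1, 1 gene of that list passed as higher in medial, as did 110 of all genes tested. The cholinergic gene was Isl1, higher in medial tissue. The part of any of these cell types in the receptor values was not tested.

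Over the 10 libraries, the genes whose levels most resembled those of each receptor were taken among the 9137 tested genes averaging 5 TPM or more, by the Pearson correlation of log2(TPM + 1). The libraries share region, so a difference between regions enters each value, and no p is given. The genes were picked as the highest of these correlations, so high values follow from the selection. Their correlations within a region or without 2 libraries, and their calls between regions, come from the same libraries and are no separate support. For Adra2c the first were Ddit4l (r = 0.93, Spearman rho = 0.94) and Ttll11 (r = 0.92, rho = 0.95). Without the 2 libraries farthest from the Adra2c median the correlations were 0.92 and 0.95. Both passed as higher in lateral tissue in limma, Ddit4l at 34.8 against 6.08 TPM (adjusted p = 0.014) and Ttll11 at 16.0 against 5.67 TPM (0.0325). Ddit4l lost its call only without both lateral replicate 5 and medial replicate 2 (0.0872), and Ttll11 lost its call in 10 of 22 alternatives (up to 0.146). Within a region the correlation with Adra2c was 0.77 and 0.80 for Ddit4l and 0.80 and 0.80 for Ttll11 in lateral and medial libraries, each over 5 libraries.

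For Adrb1 the nearest gene was Cx3cr1, the fractalkine receptor gene that marks microglia (r = 0.97, rho = 0.90), and then Crabp1 (r = 0.91) and Nptx1 (r = 0.91). The resemblance rests in part on the libraries at the extremes. Without the 2 libraries farthest from the Adrb1 median, r was 0.77 for Cx3cr1, 0.57 for Crabp1 and 0.46 for Nptx1. Cx3cr1 was at 17.0, 12.8, 19.9, 17.3 and 11.9 TPM in lateral replicates 1 to 5 and at 10.2, 2.04, 10.9, 9.25 and 3.26 TPM in medial replicates 1 to 5. Both genes were lowest in medial replicates 2 and 5 and highest in lateral replicate 3. Within the lateral libraries alone r was 0.57, and within the medial ones 0.99.

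**Figure D4:**
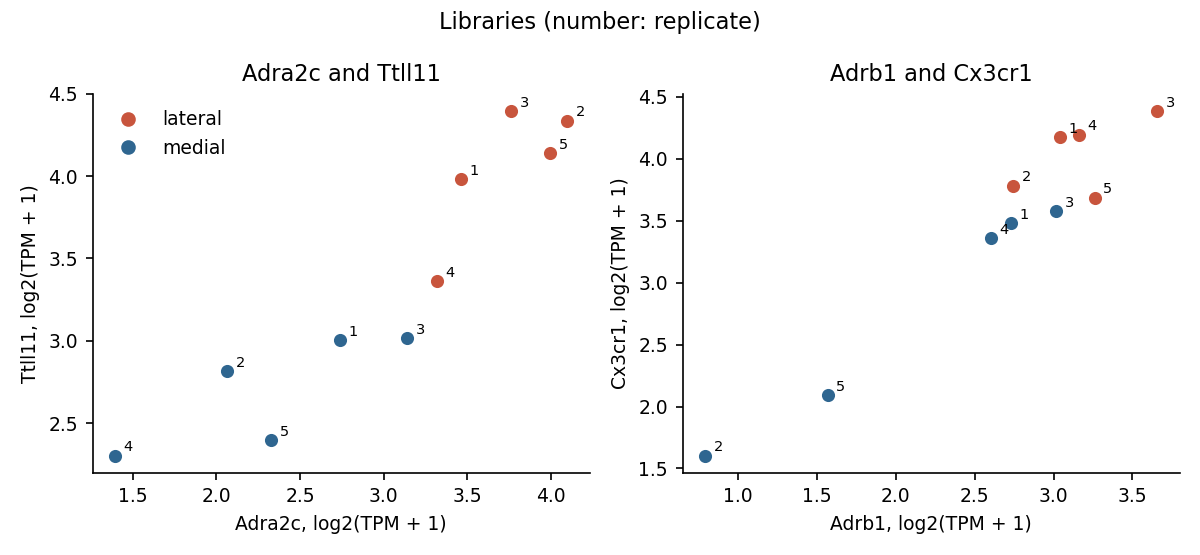
Left, Ttll11 against Adra2c, and right, Cx3cr1 against Adrb1, both axes in log2(TPM + 1), with 1 point per library coloured by region and labelled by replicate. On the left the lateral libraries lie above and to the right of all medial ones, and on the right medial replicates 2 and 5 stand apart at the lower end.

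Adra2b was nearest to Zfp62, a zinc finger protein gene (r = 0.96, rho = 0.94), Ftl1, encoding ferritin light chain (r = 0.93), and Sft2d1 (r = 0.92), none of which passed between the regions (limma adjusted p = 0.804, 0.705 and 0.717). Zfp62 was listed at 0 in medial replicate 1, as Adra2b was, and without the 2 libraries farthest from the Adra2b median r was 0.88 for Zfp62, 0.75 for Ftl1 and 0.84 for Sft2d1.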

How the data were processed

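The authors deposited 1 table of TPM per gene symbol for the 10 libraries, each column summing to 1000000. Per the submitters' processing notes the build was GRCm38 (mm10) and the tools were featureCounts 1.6.3, StringTie 1.3.4, HISAT2 2.1.0 and fastp 0.20.0. Their roles, the annotation, strand use and filters: not given in the sources used here. TPM keeps no depth, so precision rests on the spread between libraries.

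Libraries were grouped by their titles. A linear model per gene was fitted to log2(TPM + 1) in R 4.3.3 with limma 3.58.1 and trended empirical Bayes moderation, over 15596 genes with at least 1 TPM in at least 5 of 10 samples, with Benjamini-Hochberg adjustment. Fold changes on this scale understate the change of low genes. Each receptor gene also had an exact two-sided permutation test. Coding sequences were taken from GENCODE M21 and aligned with MAFFT 7.526. The figures were drawn with matplotlib 3.10.9. The members and the 14 gene lists were chosen with earlier results of these data known. The text names all receptor genes, list members that passed and up to 3 per list with the smallest p, and 3 genes per receptor of at least 5 TPM by correlation, leaving out predicted, clone-named and pseudogene symbols. Of these, 1 gene is not reported here. Slc17a6 and Neurod6, the glutamatergic markers with a row, and Prkar2a, Gfap, S100b and Bcl11b were named outside that rule after their values were seen. The code was tested on simulated data.

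Alternatives changed the pseudocount (0.1, 5), the filter (none, 5 TPM), the scaling, the variance model, sample weights, a replicate block and the libraries left out.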

Additional observations from a re-analysis of the deposited data

How the results depend on the processing

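Adra1a and Adrb1 kept their direction and stayed short of the threshold in every alternative fitted, as did Adra2c in 20 of 22 and Adra2b in 21 of 22. Adra2c passed under median-ratio scaling (log2 difference 1.57) and quantile normalization (1.65), so that 1 receptor gene passed as higher in lateral under each of these and 0 otherwise. Without medial replicate 1 Adra2b turned to -0.012 and its nearest gene Zfp62 to -0.243. Over the fits without a single library Adra2b ran from -0.012 to 0.836 and Zfp62 from -0.243 to 0.904. The Adra2a difference ran from -0.93 to -0.50 over the fits without a single library. Adra1a is not in the fit with a filter of 5 TPM. The number of genes higher in lateral was 34 without a mean-variance trend, 15 without both lateral replicate 5 and medial replicate 2, and 27 to 68 without a single library. The number higher in medial was 107 with a pseudocount of 0.1, 82 under median-ratio scaling, 100 under quantile normalization, 111 without a trend, 35 without both libraries, and 56 to 187 without a single library. The replicate block gave 19 and 45 genes and changed no receptor call (Adra2c limma adjusted p = 0.11). Replicate numbers are shared between the regions, but same-numbered libraries did not deviate together (correlations of -0.05 to 0.04 over genes), so the numbers were not taken as pairs, and no lateral library correlated best with its own number. The causes of these changes were not tested. Median-ratio scaling and quantile normalization moved the median of all genes from -0.21 to -0.025 and -0.001. List medians near 0 changed sign in some alternatives, those of the alpha-2 list in 1 of 22, the beta list in 2, the desensitization list in 3, the noradrenaline list in 1, the spiny neuron list in 4 and the cholinergic list in 7. Leaving out 1 library moved the exact test across 0.05 for Adra1a, Adra2a and Adrb1.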
